A study of Mus musculus with 15 samples.

Results

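Malat1, Neat1, Miat, Snhg11, Snhg14 and Kcnq1ot1, long noncoding RNAs that are held in the nucleus, were followed across nuclei sorted from the mouse ventral tegmental area. They were chosen by gene symbol, and all 6 were found among the 35976 genes of the count table, each on 1 row. All mice were male and 8 to 12 weeks old, and all carried 1 copy of the DAT-Cre allele, of the strain B6.SJL-Slc6a3tm1.1(cre)Bkmm/J, together with AAV5-DIO-KASH-HA, a Cre-dependent virus that puts an HA tag on the nuclear envelope of cells that use the dopamine transporter gene. HA-positive nuclei are called dopaminergic here and HA-negative nuclei non-dopaminergic; a nucleus that the virus did not reach falls into the negative gate. The samples form 4 groups. Food-trained mice, taken after 7 days of lever pressing for food, gave 4 dopaminergic and 4 non-dopaminergic samples, while cocaine maintenance gave 3 and abstinence 4, all dopaminergic. The mice of the 2 cocaine stages had 7 days of food training as well, and viral expression lasted 14 days in all samples. Maintenance mice had worked for intravenous cocaine 1 hour a day: 5 days at an infusion dose of 0.3 mg/kg, then 10 days at 1.0 mg/kg. Abstinence mice went through the same schedule and then 21 days in the home cage. Each sample pooled tissue of 2 mice, different mice were used at each stage, and p-values measure the spread between such pools.

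Long noncoding RNAs of this kind act where they are made. Malat1 gathers in nuclear speckles, the stores of splicing factors, and is among the most abundant RNAs of neuronal nuclei. Neat1, its neighbour on the chromosome, is the scaffold around which paraspeckle proteins assemble. Miat, also called Gomafu, forms separate nuclear bodies and binds the splicing factors Sf1, Qk and Celf3. Snhg11 and Snhg14 are host genes of small nucleolar RNAs. Snhg14 is read from the paternal chromosome and silences Ube3a on it in neurons, and Kcnq1ot1, also paternal, silences a cluster of imprinted genes around Kcnq1.

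In GENCODE M21 (GRCm38), Malat1 is a single exon of 6983 bases on the minus strand at chr19:5795690-5802672. Neat1, a single exon of 20771 bases, lies on the same strand at chr19:5824708-5845478, with 22.035 kb between the genes. Miat is at chr5:112213228-112229395 (minus strand, longest transcript of 9163 bases in 7 exons), and Snhg11 is at chr2:158375638-158386145 (plus strand, 5864 bases in 5 exons). GENCODE M21 classes the Snhg11 gene as protein-coding, although it is known as a host of noncoding RNA. Snhg14 is at chr7:59307924-59975759 (minus strand, longest transcript of 6861 bases in 12 exons), and RefSeq gives it a span of 1177 kb against 668 kb in GENCODE. Kcnq1ot1 is a single exon of 93092 bases at chr7:143203458-143296549 (minus strand), wholly inside the span of Kcnq1 on the other strand.

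Some features by which these RNAs are known can be read in their sequences, here for Malat1 and Miat. Malat1 ends without a normal poly(A) tail, in a stretch of A that folds into a triple helix and is followed by a small tRNA-like RNA. The longest run of A in each GENCODE transcript, searched on the transcript's own strand only, is given in capitals with 30 bases on either side for Malat1 and Neat1, which stand next to each other, and for Kcnq1ot1, which has the longest run. They lie at chr19:5795958-5796029, chr19:5835904-5835970 and chr7:143226915-143227015, all on the minus strand.
Malat1: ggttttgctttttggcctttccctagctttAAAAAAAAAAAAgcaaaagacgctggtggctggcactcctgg
Neat1: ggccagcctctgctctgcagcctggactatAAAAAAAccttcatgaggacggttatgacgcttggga
Kcnq1ot1: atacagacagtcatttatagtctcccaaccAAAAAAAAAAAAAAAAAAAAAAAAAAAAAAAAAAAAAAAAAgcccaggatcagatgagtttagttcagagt
The run is 12 bases long in Malat1, 7 in Neat1 and 41 in Kcnq1ot1, against 17 in Snhg14, 8 in Snhg11 and 4 in Miat. It starts at base 6674 of 6983 in Malat1, 9539 of 20771 in Neat1 and 69565 of 93092 in Kcnq1ot1. The runs of Neat1 and Kcnq1ot1 thus lie well inside their transcripts and are shown beside that of Malat1, not as known features. Of 139 long noncoding RNA genes with a transcript of at least 5000 bases, 31.7% hold a run as long as that of Malat1 and 75.5% one as long as that of Neat1. For Kcnq1ot1 the share is 0.719%, which is Kcnq1ot1 itself. These shares take no account of length, and the Kcnq1ot1 transcript has 93092 bases. Miat is known for repeats of a splicing branch point motif. The window of 120 bases with the most matches to ACTAAC, at chr5:112216755-112216874 on the minus strand, is shown with its 4 matches in capitals.
Miat: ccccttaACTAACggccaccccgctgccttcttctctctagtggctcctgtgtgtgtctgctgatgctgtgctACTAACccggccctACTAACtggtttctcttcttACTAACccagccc
The whole Miat transcript holds 11 matches, or 1.20 per kb, and 0 matches to the reverse complement GTTAGT. The median among the 139 long transcripts was 0.142 per kb, and Miat itself was the only 1 at that density. A match was present in 1.54% of 115243 windows of this length, laid end to end along long noncoding RNA transcripts, those of Miat included. Of these, 6 windows held 4 or more. The Miat window was picked as the best of all positions and centred on its matches, so these shares do not measure how rare it is. Such matches are letters in a sequence, not measured binding.

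The libraries held 25813697 to 59046618 counts. Between 14841 and 19750 genes were detected in the dopaminergic libraries and 22733 to 23886 in the non-dopaminergic ones. Levels below are in CPM, the counts relative to each library's total after TMM scaling in edgeR. The sort was checked on markers: 12 of 12 dopamine neuron markers passed as higher in dopaminergic nuclei, and the summed level of 10 oligodendrocyte markers was 7.00 times as high in non-dopaminergic nuclei. In all 3 maintenance libraries genes rich in G and C were lower relative to the other genes (slopes of log2 CPM per percent GC of -0.0377, -0.0224 and -0.0377), as in non-dopaminergic replicate 2 (-0.0247). The other dopaminergic libraries had slopes from -0.0166 to 0.0205, and non-dopaminergic replicates 1, 3 and 4 had slopes of 0.0324, 0.0274 and 0.0210.

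Malat1 gave more counts than any other gene in each of the 4 groups, and Snhg11 came the third in each, with no correction for gene length. In food-trained dopaminergic nuclei Malat1 alone took 5.85% ± 1.21 (SD, n = 4) of all counts, and the 6 RNAs together took 7.23% ± 1.54. Per kb of the longest GENCODE transcript, the levels there were 8359 ± 1364 CPM per kb for Malat1, 2159 ± 389 for Snhg11 and 30.8 ± 15.2 for Miat. They were 11.4 ± 5.46 CPM per kb for Snhg14, 7.69 ± 2.78 for Kcnq1ot1 and 0.492 ± 0.320 for Neat1 (SD, n = 4). In this order the neighbours Snhg14 and Kcnq1ot1 did not differ beyond their spread. In non-dopaminergic nuclei the order changed at its lower end: Neat1, at 29.5 ± 5.13 CPM per kb, stood beside Miat at 38.5 ± 11.8 and above Kcnq1ot1 at 11.3 ± 1.17 and Snhg14 at 6.45 ± 2.26. The short and the long form of Neat1 share their start and cannot be told apart in a count per gene, and the Snhg14 values rest on a gene model that differs between annotations.

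**Figure D1:**
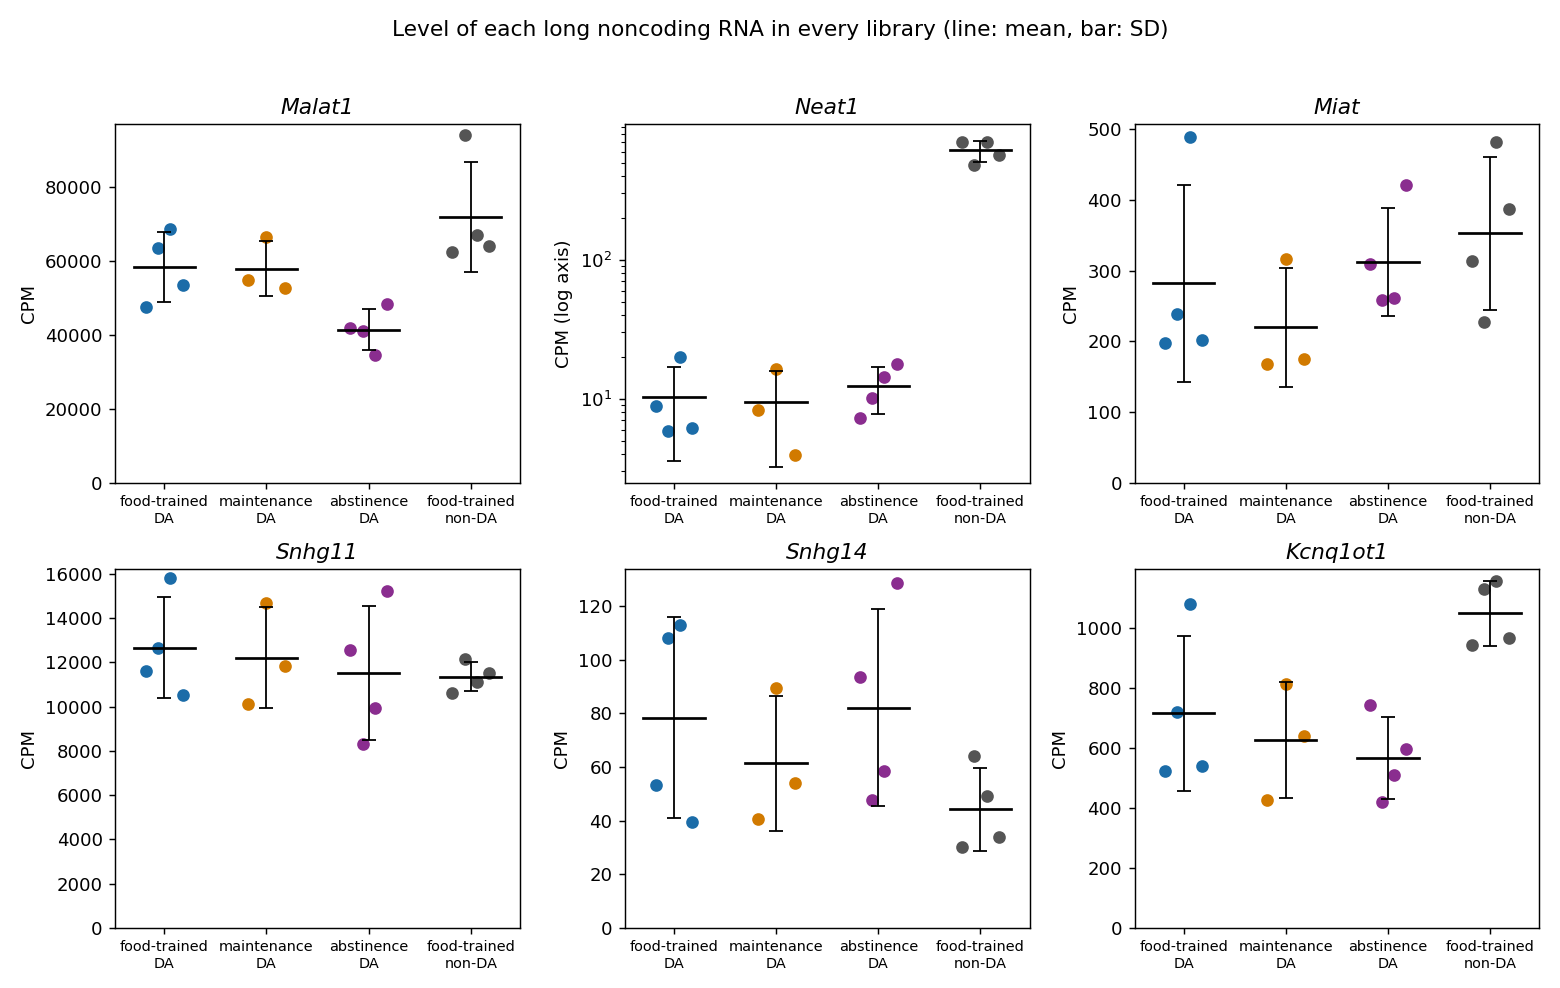
CPM of each RNA (vertical axis, log axis for Neat1 only) in every library, by group on the horizontal axis, with the mean as a line and the SD as a bar (DA, dopaminergic). Neat1 lies between 3.94 and 19.99 CPM in the 11 dopaminergic libraries and between 481 and 699 CPM in the 4 non-dopaminergic ones, and the groups overlap for the other 5 RNAs in food-trained mice.

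The comparison of dopaminergic with non-dopaminergic nuclei of food-trained mice asked whether the RNAs mark 1 of the 2 populations. Neat1, the paraspeckle scaffold, was 59.8 times as high on average in non-dopaminergic nuclei, and it was the only 1 of the 6 to pass the test. Malat1, Miat, Snhg11, Snhg14 and Kcnq1ot1 did not pass. With edgeR's quasi-likelihood test at an adjusted p under 0.05, 12.8% of 19786 genes passed in this comparison, so that 1 of 6 is a share near that of all genes. The groups did not overlap for 1 of the 6, against 26.1% of all genes tested. The median log2 fold change was -0.30 over the 6 RNAs and -0.21 over all genes tested.

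Neat1 stood at 8.90, 5.90, 19.99 and 6.11 CPM in dopaminergic replicates 1 to 4, from 515, 207, 553 and 280 counts. In the non-dopaminergic libraries it stood at 699, 481, 698 and 570 CPM, from 34031, 23069, 29917 and 26175 counts. Every non-dopaminergic library was thus far above every dopaminergic one. The means were 10.2 ± 6.65 and 612 ± 106 CPM (SD, n = 4 each), a ratio of 59.8. The log2 fold change was -5.89 (SE 0.48, 95% interval -6.98 to -4.81, adjusted p = 0.000733 by edgeR). An exact permutation test of the 8 libraries gave p = 0.0286, two-sided, the smallest it allows when the pairs are ignored. Within the 4 same-numbered pairs the exact test gave 0.125, again the smallest possible, so it cannot reach 0.05. By mean CPM, with no correction for length, Neat1 had rank 111 among all genes in non-dopaminergic nuclei and rank 10446 in dopaminergic ones.

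Over all 19786 genes tested, 1165 (5.89%) had a lower log2 fold change than Neat1, of which 1101 were at 0 in all 4 dopaminergic libraries and so had entered the test through the non-dopaminergic ones. Their levels were mostly low, with a median over genes of 0.591 CPM for the mean of the 8 libraries. Among the 1985 genes whose mean over the 8 libraries was at least 100 CPM, 0 had a log2 fold change below that of Neat1. Among the 1963 with a mean of at least 100 CPM in non-dopaminergic nuclei alone, 1 did so and passed: Sec14l5, named after its value was seen, at 1.25 ± 2.51 against 136 ± 15.4 CPM (log2 fold change -6.73, adjusted p = 0.0324 by edgeR).

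The labels call the HA-negative nuclei neurons, yet their 10 oligodendrocyte markers summed to 16138 ± 5548 CPM (SD, n = 4), so Neat1 was set beside glial and vascular markers. In dopaminergic and then non-dopaminergic libraries, the oligodendrocyte sums ranged from 1760 to 2806 and from 9847 to 23351 CPM, and the astrocyte sums from 865 to 1103 and from 1959 to 3708 CPM. Microglial sums ranged from 603 to 1259 and from 2170 to 4698 CPM, and vascular sums from 10.5 to 201 and from 230 to 456 CPM. In single dopaminergic libraries of food-trained mice up to 2 of 10 oligodendrocyte, 2 of 10 microglial, 0 of 10 astrocyte and 7 of 8 vascular markers were at 0. The summed markers were higher in non-dopaminergic nuclei by ratios of 7.00 for oligodendrocytes (10 genes), 5.18 for vascular cells (8 genes), 3.15 for microglia (10 genes) and 2.76 for astrocytes (10 genes), each smaller than the 59.8 of Neat1. Put the other way, the dopaminergic libraries kept 14.3%, 19.3%, 31.8% and 36.2% of these marker sums and 1.67% of the Neat1 level. None of the 38 markers had a log2 fold change below that of Neat1. The vascular marker Kdr, a growth factor receptor, came close at -5.72, from 5.43 to 0.0982 CPM, without passing (adjusted p = 0.0803 by edgeR). Ermn (-4.48), Vtn (-4.24) and Pecam1 (-4.14) did not pass either, and the lowest values among those that passed were those of Hapln2, an oligodendrocyte gene (-4.59), and Mag, a myelin protein (-3.76). Oligodendrocyte markers passed as lower in 7 of 10 cases, microglial ones in 7 of 10, astrocyte ones in 5 of 10 and vascular ones in 0 of 8. In bulk nuclei, fewer cells of a type and less RNA per cell cannot be told apart.

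**Figure D2:**
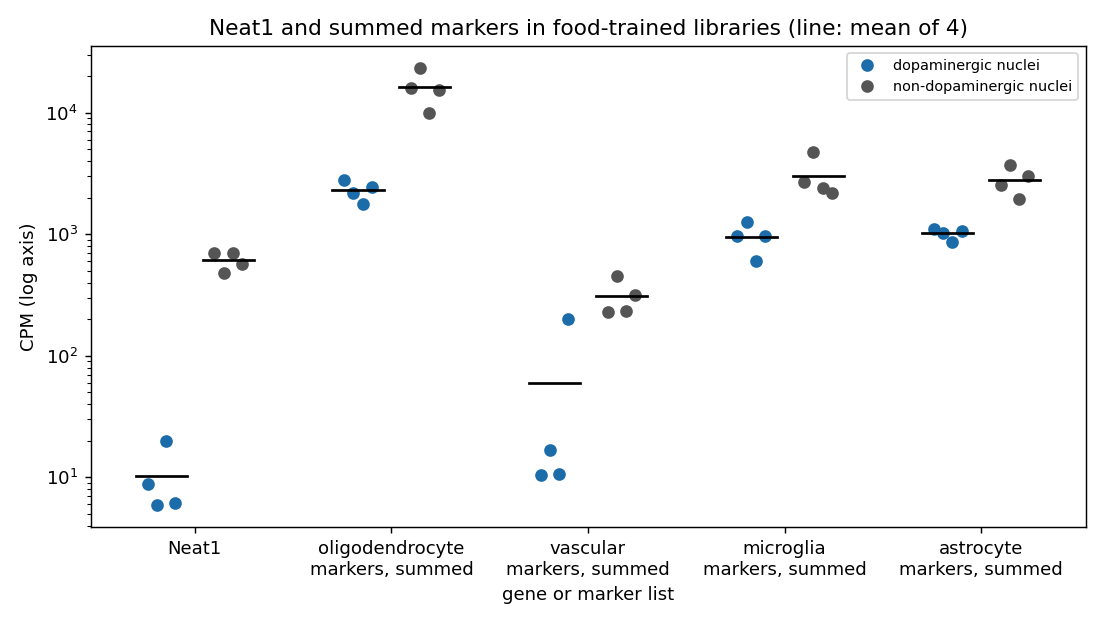
Neat1 and the summed CPM of 4 marker lists (horizontal axis) in each food-trained library, on a log axis of CPM, with the mean of 4 libraries as a line. Neat1 drops from 612 to 10.2 CPM between the populations, and oligodendrocyte markers drop from 16138 to 2305 CPM.

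Among the 11 dopaminergic libraries the log2 CPM of Neat1 had a negative Pearson r with every glial and vascular marker sum. It was -0.40 for oligodendrocytes (rho -0.45, r -0.30 without the 2 libraries farthest from the median) and -0.69 for astrocytes (rho -0.71, r -0.68 without the 2 farthest). For microglia it was -0.24 and for vascular cells -0.38. With the dopamine neuron sum r was negative too, at -0.61 (rho -0.60, r -0.48 without the 2 farthest). These values share libraries and total counts and are a description only, and the source of the Neat1 counted there was not tested.

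Malat1, the speckle RNA, was measured at 47631, 63539, 68728 and 53590 CPM in the 4 dopaminergic libraries of food-trained mice. It was measured at 62451, 94018, 67021 and 64175 CPM in the non-dopaminergic ones. The ranges overlapped, and non-dopaminergic replicate 2, the 1 library of its group with a negative GC slope, was far above the rest. The log2 fold change was -0.29 (SE 0.48, 95% interval -1.37 to 0.79, adjusted p = 0.790 by edgeR), and without that library it was -0.14.

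Kcnq1ot1 was at 523, 721, 1080 and 540 CPM in dopaminergic nuclei and at 943, 1130, 1157 and 968 CPM in non-dopaminergic nuclei. Only dopaminergic replicate 3 reached into the non-dopaminergic range, and within same-numbered pairs the dopaminergic value was the lower in 4 of 4. The log2 fold change of -0.54 (SE 0.27, 95% interval -1.14 to 0.06) did not pass (adjusted p = 0.262 by edgeR), nor did the -0.60 with the pairs as a block (SE 0.18, adjusted p = 0.138 by edgeR). Without that library it was -0.78 and passed (adjusted p = 0.0312 by edgeR), which made 2 of 6 RNAs called.

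Snhg14 was at 53.4, 108, 113 and 39.4 CPM in dopaminergic nuclei and at 30.1, 63.9, 49.3 and 33.7 CPM in non-dopaminergic nuclei. The ranges overlapped, while within same-numbered pairs the dopaminergic value was the higher in 4 of 4. The log2 fold change was 0.84 (SE 0.40, 95% interval -0.06 to 1.74, adjusted p = 0.243 by edgeR), and with the pairs as a block it was 0.76 (SE 0.24, adjusted p = 0.142 by edgeR). Miat was at 198, 239, 489 and 202 CPM against 314, 228, 482 and 387 CPM, with dopaminergic replicate 3 apart from the other 3 (log2 fold change -0.31, SE 0.35, 95% interval -1.11 to 0.48). The Miat value was -0.69 without that library (adjusted p = 0.110 by edgeR), -0.47 without non-dopaminergic replicate 2 and -0.10 without non-dopaminergic replicate 3, and passed in none of the fits without 1 library. Snhg11 was at 11625, 12665, 15820 and 10535 CPM against 10618, 12148, 11104 and 11505 CPM. The ranges overlapped, and the 95% interval ran from -0.52 to 0.86 around a log2 fold change of 0.17.

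**Figure D3:**
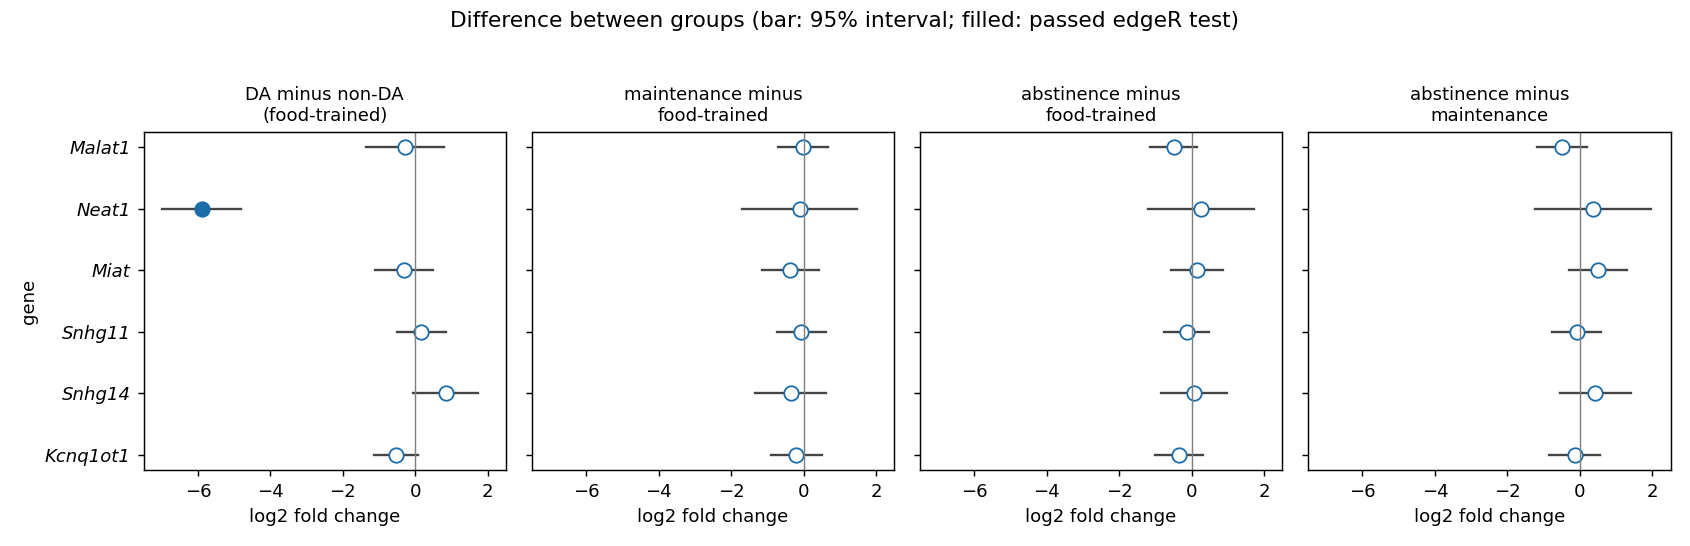
Log2 fold change of each RNA (horizontal axis) in the 4 comparisons, with the 95% interval from the edgeR fit as a bar, filled where the test was passed. Neat1 between the populations, at -5.89, is the only filled point, and the other intervals cross 0.

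Genes that work with these RNAs were taken from lists of the proteins, neighbours and relatives known for each. Protein genes of paraspeckles and speckles were lower in dopaminergic nuclei where they passed. Of 12 paraspeckle proteins, 0 passed as higher and 4 as lower, with a median log2 fold change of -0.71, against 3.63% and 9.17% of all genes tested. Ewsr1, an RNA-binding protein, fell from 311 ± 33.0 to 119 ± 39.7 CPM (log2 fold change -1.38, adjusted p = 0.00954 by edgeR). Sfpq, a core paraspeckle protein, fell by 1.08 on the log2 scale, a call lost in 6 of 8 fits that left out 1 library (adjusted p = 0.0548 to 0.0722 by edgeR). Hnrnph3 also passed (-1.07), but not in 3 of those 8 fits nor with the replicate number as a block (adjusted p = 0.108 by edgeR). The core proteins Nono, at 55.3 ± 18.4 against 47.0 ± 10.3 CPM, and Pspc1, at 44.2 ± 21.9 against 39.0 ± 3.96 CPM, did not pass.

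Of 20 nuclear speckle and splicing proteins, 0 passed as higher and 7 as lower (median log2 fold change -0.66), against 3.63% and 9.17% of all genes tested. The kinase Clk4, which phosphorylates splicing factors, fell from 249 ± 28.2 to 113 ± 7.12 CPM (log2 fold change -1.13, SE 0.16, adjusted p = 0.00645 by edgeR). Acin1 (-1.11), the splicing factor Srsf5 (-0.98) and the speckle protein Pnn (-1.12) fell by similar amounts. Among the 3 splicing factors known to bind Miat, Qk passed as lower (238 ± 68.2 against 641 ± 395 CPM, log2 fold change -1.42, adjusted p = 0.0464 by edgeR), with 1232 CPM in non-dopaminergic replicate 2 and 415 to 469 CPM in the other 3. This call was lost in 6 of 8 fits that left out 1 library (adjusted p = 0.0574 to 0.0930 by edgeR), and without non-dopaminergic replicate 2 the log2 fold change was -0.89. Celf3 and Sf1 did not pass (log2 fold changes -1.01 and -0.33). Qk is also well known from oligodendrocytes, whose markers fell in the same libraries, and the part of glial nuclei in these list counts was not tested. The mitochondrial and ribosomal protein sums were higher in the dopaminergic libraries, and their part was not tested either. With the replicate number as a block, 775 genes (3.92%, both directions together) passed in place of 2534, and 3 of 12 paraspeckle and 5 of 20 speckle genes passed as lower.

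Of 7 imprinted genes around Snhg14, 1 passed as higher and 1 as lower, against the same 3.63% and 9.17% of all genes tested. Ndn, a paternally expressed gene of neurons, was higher in dopaminergic nuclei (265 ± 92.4 against 95.3 ± 20.8 CPM, log2 fold change 1.48, adjusted p = 0.0119 by edgeR). Peg12, at 0 in all 4 dopaminergic libraries and at 0.628 ± 0.330 CPM in the others, was at least 8.07-fold lower, taking 3 counts per library as the floor; it entered the test through the non-dopaminergic libraries alone, so that it could be called in that direction only. The other 5 did not pass. Ube3a, the gene that Snhg14 silences on the paternal chromosome, was at 458 ± 146 and 470 ± 90.3 CPM, a log2 fold change of -0.02 (SE 0.26). The genes overlap on opposite strands by 3.61 kb in GENCODE and 38.8 kb in RefSeq, and reads there could not be assigned without knowing how strand was used.

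Of the genes of the Kcnq1ot1 domain, 9 of 11 could be tested. Of these, 0 passed as higher and 3 as lower, against 3.63% and 9.17% of all genes tested. All 3 were at 0 in the dopaminergic libraries: Ascl2, Kcnq1 and Tspan32 were at least 15.1-fold, 10.3-fold and 21.5-fold lower on the same floor. They were low in the non-dopaminergic nuclei too, at 1.17 ± 0.223, 0.799 ± 0.359 and 1.67 ± 1.01 CPM. Like Peg12 they entered the test through those libraries alone, which fixes their direction, so nothing is read from this count. Kcnq1ot1 and Kcnq1 overlap on opposite strands over all 93.1 kb of Kcnq1ot1 in GENCODE, and without the strand setting reads of one may have been counted to the other or left out. With the replicate number as a block Ascl2, Kcnq1, Tspan32 and Peg12 no longer passed (adjusted p = 0.180, 0.190, 0.173 and 0.199 by edgeR). The list's median log2 fold change of -0.50 was the same with the 3 genes at their bound.

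Relatives of the 6 RNAs were read against the same 3.63% higher and 9.17% lower of all genes tested. Of 16 other snoRNA host genes, 2 passed as higher and 0 as lower (median log2 fold change 0.33): Snhg10 (31.1 ± 6.81 against 12.3 ± 0.978 CPM) and Dancr (58.2 ± 15.9 against 27.3 ± 6.0 CPM). Neither passed with the replicate number as a block (adjusted p = 0.133 and 0.140 by edgeR), and the calls were lost in 2 and 4 of 8 fits that left out 1 library. Of 17 other long noncoding RNAs, 1 passed as higher and 3 as lower (median -0.54). Sox2ot, which overlaps the Sox2 gene, fell from 111 ± 36.2 to 19.2 ± 6.18 CPM (log2 fold change -2.52, SE 0.33), a call lost with all 15 libraries in the fit (SE 0.78, adjusted p = 0.0567 by edgeR). Firre fell from 163 ± 39.3 to 52.9 ± 24.3 CPM (-1.61, SE 0.34). Dlx6os1, antisense to a transcription factor gene of GABA neurons, was at 0 in all 4 dopaminergic libraries, at least 52.0-fold below its 4.04 ± 2.03 CPM elsewhere, which was its only way into the test, and did not pass with the block (adjusted p = 0.138 by edgeR). Rian, an imprinted host of small nucleolar RNAs, was higher (305 ± 60.2 against 180 ± 34.4 CPM, log2 fold change 0.77, adjusted p = 0.0457 by edgeR), a call lost with the block (adjusted p = 0.0820 by edgeR) and in 7 of 8 fits that left out 1 library.

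**Figure D4:**
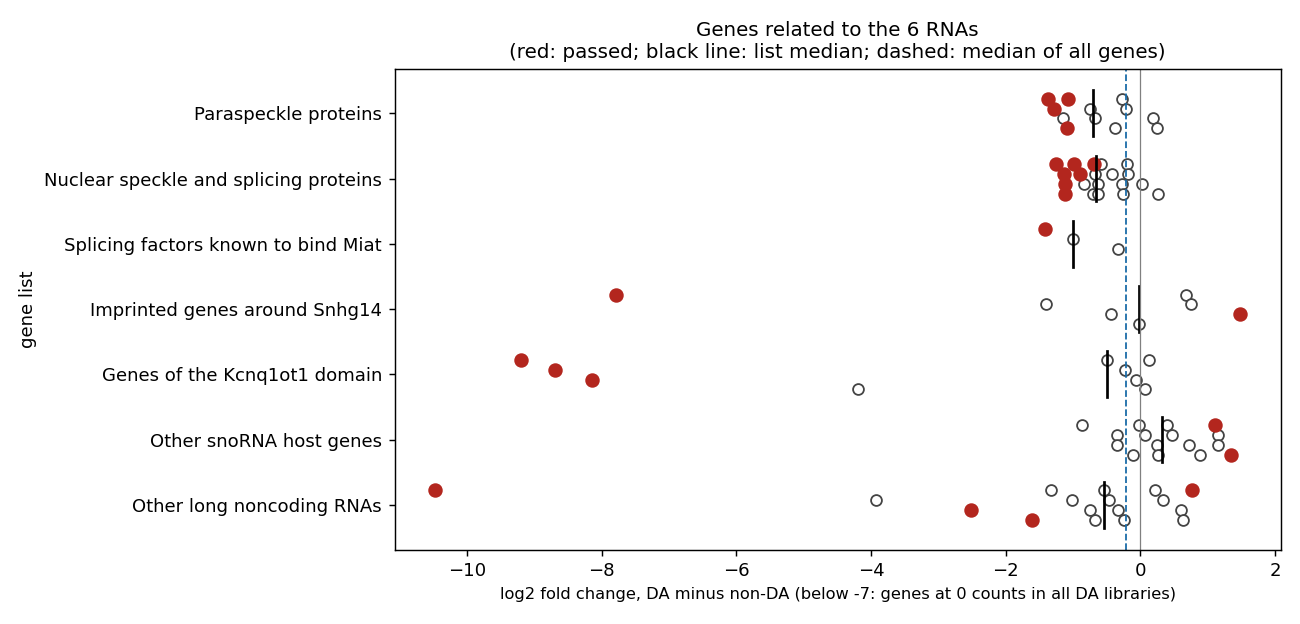
Log2 fold change between the populations (horizontal axis, dopaminergic minus non-dopaminergic) of each tested gene of 7 lists, red where the edgeR test was passed, with each list's median as a black line and the median of all genes, -0.21, dashed. The paraspeckle and speckle genes that passed all lie below 0, and the points below -7 are fitted values of genes with 0 counts in the dopaminergic libraries.

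The comparisons between stages asked whether the level of these RNAs in dopaminergic nuclei followed cocaine taking or abstinence. None of the 6 passed in any of them. Malat1 after abstinence had log2 fold changes of -0.50 against food training and -0.49 against maintenance, neither past the threshold. The second was -0.24 with a correction for GC and 0.07 with a term for the 4 libraries of most negative GC slope, the 3 of maintenance and non-dopaminergic replicate 2. Since that term holds every maintenance library, its size is set by non-dopaminergic replicate 2 alone, where Malat1 was far above its group. The comparisons share libraries with each other, so their values are given side by side and no likeness between them is drawn.

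After maintenance against food training, 0 of 6 passed by edgeR, where 0.131% of 19060 genes passed, and 0 of 6 had an unadjusted p under 0.05, against 2215 genes (11.6%). The groups overlapped for all 6, while they did not overlap for 8.45% of all genes. Log2 fold changes were -0.01 (95% interval -0.70 to 0.68) for Malat1, -0.06 (-0.73 to 0.62) for Snhg11 and -0.20 (-0.91 to 0.51) for Kcnq1ot1. They were -0.11 (-1.69 to 1.48) for Neat1, -0.36 (-1.15 to 0.43) for Miat and -0.36 (-1.33 to 0.62) for Snhg14. With the replicate number as a block the SE of the Malat1 value was 0.61, against 0.32 without it.

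After abstinence against food training, 0 of 6 passed by edgeR, as did 0 (0%) of all genes tested. An unadjusted p under 0.05 was reached by 0 of 6 and by 819 genes (4.30%), and DESeq2's test passed 140 genes. The groups overlapped for all 6, while they did not overlap for 3.34% of genes. Malat1 was at 41855, 41168, 34515 and 48331 CPM after abstinence, against 47631 to 68728 CPM after food training. Only abstinence replicate 4 reached the food-trained range. The means were 41467 ± 5648 and 58372 ± 9525 CPM (SD, n = 4 each), a log2 fold change of -0.50 (SE 0.30, 95% interval -1.14 to 0.14). The exact permutation test gave p = 0.0571, two-sided, where the design allows 0.0286. The other intervals were -1.20 to 1.73 for Neat1, -0.59 to 0.87 for Miat, -0.77 to 0.48 for Snhg11, -0.84 to 0.96 for Snhg14 and -0.999 to 0.312 for Kcnq1ot1.

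After abstinence against maintenance, 0 of 6 passed by edgeR, where 0.178% of genes passed. Malat1 was at 54868, 66544 and 52597 CPM in the 3 maintenance libraries, all above the 4 abstinence values. In CPM after TMM scaling it was the 1 of 6 whose groups did not overlap, against 12.2% of all genes. The log2 fold change was -0.49 (SE 0.32, 95% interval -1.17 to 0.20, adjusted p = 0.736 by edgeR). The exact permutation test gave p = 0.0571, two-sided, the smallest that 4 libraries against 3 allow. The share of all counts taken by Malat1 was 4.23% ± 0.925 after abstinence (n = 4) and 5.65% ± 1.24 after maintenance (n = 3). On that scale the groups overlapped: abstinence replicate 4, at 5.41%, was above maintenance replicates 1 and 3, at 4.97% and 4.91%. A test for any difference among the 3 stages passed 0 of 6 RNAs and 0.0839% of genes.

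Miat was at 167, 317 and 175 CPM after maintenance and at 310, 258, 262 and 422 CPM after abstinence, and maintenance replicate 2 reached into the abstinence range (log2 fold change 0.51, 95% interval -0.289 to 1.299). Neat1 stayed low at every stage, at 8.31, 16.3 and 3.94 CPM after maintenance and at 7.31, 10.1, 14.3 and 17.7 CPM after abstinence. Snhg11 was at 10114, 14677 and 11850 CPM after maintenance and at 12553, 8328, 9919 and 15208 CPM after abstinence. For both the spread within a stage was wider than the difference between stages. Snhg14 was at 40.7, 89.4 and 54.2 CPM and then at 93.6, 47.8, 58.4 and 129 CPM. Kcnq1ot1 was at 425, 813 and 640 CPM and then at 743, 419, 509 and 596 CPM. The stages overlapped for both of these RNAs as well.

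Between stages 1 gene of these lists passed, 1 of the 3 splicing factors known to bind Miat. In the comparison of abstinence with maintenance, where 0.168% of all genes tested passed as higher, Celf3 was higher after abstinence (56.7 ± 11.4 against 9.47 ± 2.29 CPM, log2 fold change 2.58, SE 0.45, adjusted p = 0.0434 by edgeR). This call was lost in 9 of 11 fits without 1 library, where the log2 fold change was 2.40 to 2.78. It was also lost with the GC correction (2.35, adjusted p = 0.0730 by edgeR), with all 15 libraries in the fit (2.58, adjusted p = 0.0897 by edgeR) and with the replicate number as a block (2.45, adjusted p = 0.270 by edgeR). With the term for the 4 libraries of most negative GC slope, whose size is set by 1 library of the other population, the log2 fold change was 0.21 (SE 0.65). DESeq2's test, which passed 793 genes in this comparison in place of 34, kept the call. Qk, at 450 to 607 CPM in the maintenance libraries and 175 to 337 CPM in the other dopaminergic ones, did not pass (adjusted p = 0.136 against food training and 0.0640 against abstinence by edgeR). Among non-dopaminergic libraries it was highest in replicate 2, the 1 with a negative GC slope. Sf1 went the other way, at 14.2 to 33.5 CPM in the maintenance libraries and 47.2 to 79.0 CPM in the other dopaminergic ones, and did not pass. All other list genes missed the threshold in these edgeR fits of the 3 comparisons.

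By the naming rule, the gene of lowest p in each list is given where none passed. With DESeq2's test, which also called more of all genes, some of them did pass: Celf3, Srrm2, Hnrnpk and Mkrn3 for maintenance against food training (adjusted p = 0.00019, 0.00197, 0.00863 and 0.0312 by DESeq2), and Srrm2 and Mkrn3 for abstinence against maintenance (0.0397 and 0.0369 by DESeq2). After maintenance against food training, Celf3 had a log2 fold change of -2.04 (adjusted p = 0.0995 by edgeR, and 0.0294 without food-trained replicate 2) and the speckle scaffold Srrm2 one of -1.25 (adjusted p = 0.192 by edgeR). Adjusted p-values by edgeR were 0.290 to 0.411 for Hnrnpk, a paraspeckle protein (log2 fold change 0.65), Tssc4 (-0.79), Pvt1 (1.28) and Snhg6 (1.33). With the term for the 4 libraries of most negative GC slope the log2 fold changes were -0.34 for Srrm2 and 0.085 for Hnrnpk, and with the GC correction -1.17 and 0.41. Mkrn3 was at 0 in all maintenance libraries and at 2.80 ± 3.59 CPM after food training, and did not pass. After abstinence against food training the genes were Clk4 (log2 fold change 0.81), Hnrnpk (0.39), Celf3 (0.54), Ndn (-0.41), Cdkn1c (2.42, at 0.437 ± 0.532 CPM), Snhg5 (-0.84) and Sox2ot (-1.71), with adjusted p-values of 1.00 by edgeR. After abstinence against maintenance, Srrm2 (log2 fold change 1.03, and 0.12 with the GC slope term), Tssc4 (0.97), Sfpq (-0.74) and Snhg5 (-1.18) had adjusted p-values of 0.351 to 0.492 by edgeR. Mkrn3 and Airn, both at 0 in all maintenance libraries, were at 2.86 ± 2.91 and 1.45 ± 1.44 CPM after abstinence and did not pass.

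Libraries of the same stage also differed, and the 6 RNAs were mostly high in the same ones. In each stage the library with the lowest total count, food-trained replicate 3, maintenance replicate 2 and abstinence replicate 4, had the highest CPM of its stage in 17 of 18 cases (6 RNAs in 3 stages). The exception was Kcnq1ot1 after abstinence. Over 16186 genes with a mean of at least 50 counts, 29.5% of such cases fell on the library with the lowest total. Library totals spanned a factor of 2.29, while the counts of Malat1 spanned only 1.45, from 1899550 to 2757039, and those of Snhg11 spanned 1.54.

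The log2 CPM of Kcnq1ot1 had a Pearson r of -0.92 with the log2 total count over the 11 dopaminergic libraries (rho -0.92, r -0.81 without the 2 farthest). For Snhg11 r was -0.89 (rho -0.92, -0.83 without the 2) and for Snhg14 it was -0.80 (rho -0.74, -0.80 without the 2). Malat1 (r -0.76, -0.54 without the 2) and Miat (-0.69, -0.42 without the 2) leaned the same way, and Neat1 (-0.37) changed sign without the 2 farthest libraries (0.19). Over all those genes the median r was 0.11, with quartiles of -0.22 and 0.42. A CPM is divided by the total, so both axes share it, and the part of depth in the differences between libraries was not tested. The coefficient of variation was smaller for raw counts than for CPM in all 6 RNAs: 13.2% against 21.0% for Malat1 and 14.4% against 30.5% for Kcnq1ot1.

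**Figure D5:**
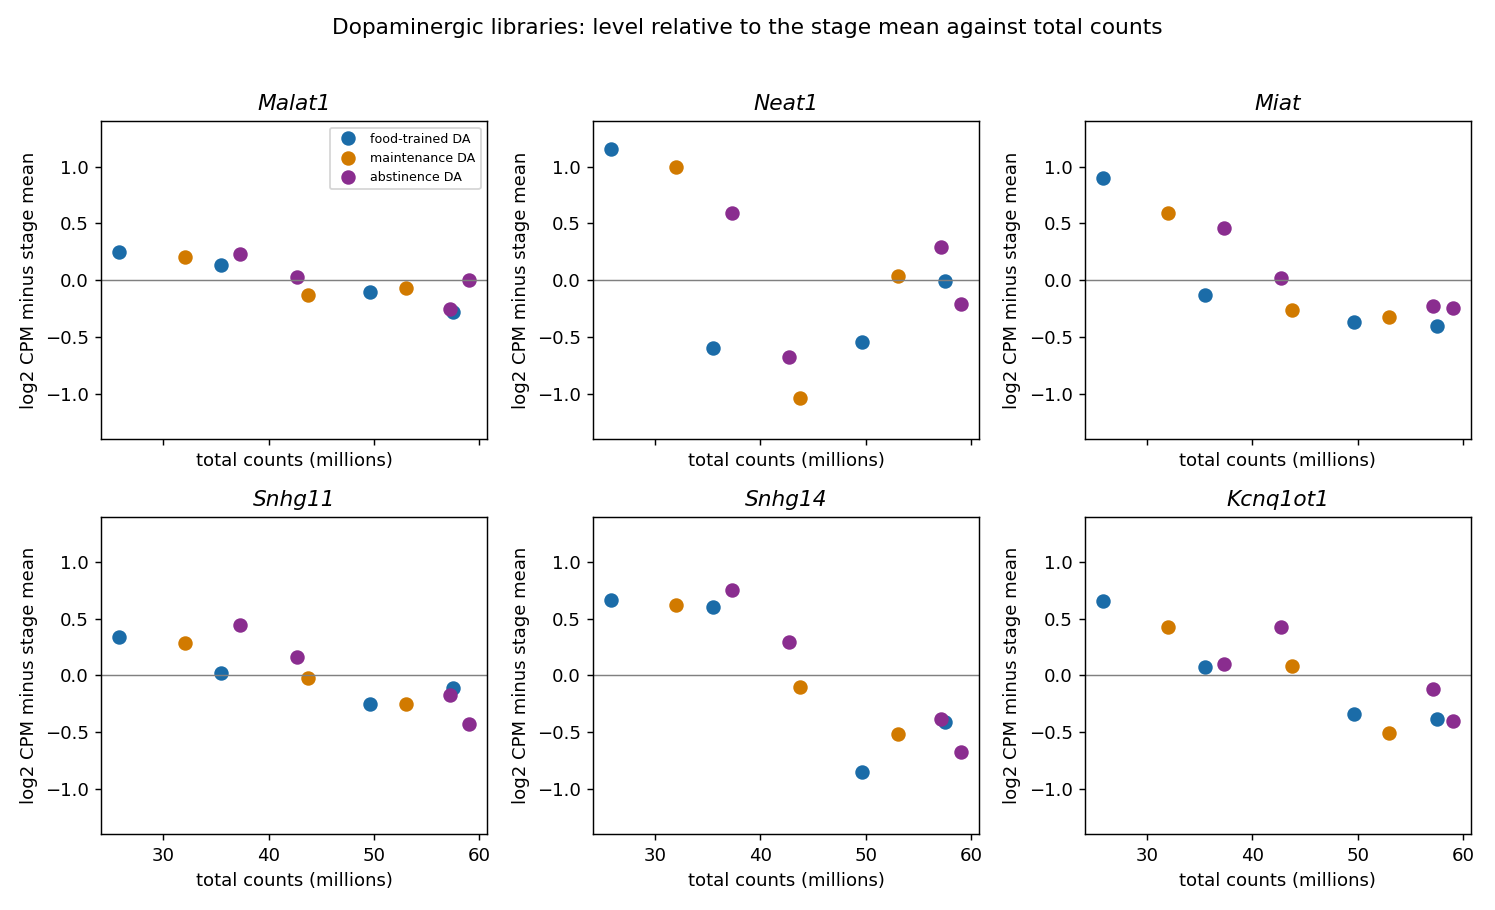
Log2 CPM of each RNA minus its mean in the same stage (vertical axis) against the library's total counts (horizontal axis) for the 11 dopaminergic libraries, coloured by stage. The library with the lowest total of its stage is the highest in 17 of 18 cases, and Neat1 shows the widest scatter.

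The RNAs can also be read against each other over these 11 libraries. The closest pairs were Snhg11 with Kcnq1ot1 (r 0.85, rho 0.88, 0.73 without 2 libraries), Snhg11 with Snhg14 (0.83, 0.82, 0.84), Miat with Snhg14 (0.81, 0.76, 0.68) and Neat1 with Miat (0.79, 0.75, 0.64). Malat1 and Neat1, neighbours on the chromosome, had an r of 0.05. Miat had an r of -0.86 with the summed astrocyte markers (rho -0.89, -0.96 without the 2), and Snhg11 and Kcnq1ot1 each had an r of 0.72 with the 13 protein genes of the mitochondrial genome. All of these points share libraries, totals and scaling.

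Among 13376 other genes, those whose log2 CPM was most like that of Malat1 over the 11 libraries were Fam46a and Hook3 (r 0.91 each). For Neat1 they were Kctd16 (0.90) and Mrps16 (0.89), for Miat Agfg1 (0.94) and Ipo8 (0.93), and for Snhg11 Fam50a (0.94) and the row named Mir377 (0.94). Snhg14 was most like Flot1 (0.95) and Ralgapa1 (0.93), and Kcnq1ot1 was most like Mettl2 (0.95) and Eif5b (0.94). Without the 2 libraries farthest from the member's median the r values were 0.83 to 0.95.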

How the data were processed

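RNA of sorted nuclei was sequenced in 15 samples. The authors deposited whole-number counts per gene for all 15; a second deposited table, named as normalized, held the same counts in its 10 columns (0 cells differed). The submitters' processing notes name mm10 and GRCm38, Trim Galore 0.6.7, cutadapt 1.18, STAR 2.7.10a, StringTie 2.1.5 and DESeq2 1.38.3, without their roles; the annotation and strand setting are not given in the sources used here. Groups came from sample titles.

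Counts were compared in R 4.3.3 with edgeR 4.0.16 (filterByExpr, TMM, quasi-likelihood F-test, two-sided, Benjamini-Hochberg over all genes tested, threshold 0.05). The population fit used 8 libraries and the stage contrasts a fit of 11. Exact permutation tests used log2 CPM (prior count 2) and 2 times the smaller tail. Intervals cover the fit's error only. Scripts were tested on simulated data. Alternatives covered normalization, filter, test, libraries in the fit, replicate block, GC correction, a term for the 4 libraries of most negative GC slope and leaving out each library. They used edgeR, with DESeq2 1.42.0 for its own test and size factors. No limma test was among them, although limma 3.58.1 was loaded.

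The members, lists and GC slope term were chosen with earlier results of these data known. Of each list, up to 4 genes past the threshold, or else the 1 of lowest p, were named; for likeness, the 2 genes of highest r. The mitochondrial list holds the 13 protein genes by symbol, since the table has no mt- prefix.

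In the population comparison the replicate numbers pair the samples by the check used: same-numbered libraries deviated together from their group means (r 0.116, 0.127, 0.262 and 0.243), and each of the 4 dopaminergic libraries matched its own number best, as did 3 of the 4 non-dopaminergic ones. Blocked values stand beside results they change. GC content and transcript sequences came from GENCODE M21 (GRCm38), covering 84.9% and 85.3% of tested genes. The values of 1 gene of the lists are not reported here; it stays in the list counts.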

Additional observations from a re-analysis of the deposited data

Results flagged for a closer look

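Malat1 in non-dopaminergic replicate 2, at 94018 CPM, stood apart from the other 3 libraries of its group by Dixon's test. Miat in food-trained dopaminergic replicate 3, at 489 CPM, stood apart from its group in the same way. The test was run on 18 groups of 4 libraries, and chance flags about 1 in 20. The Malat1 library is the non-dopaminergic one with the GC slope of -0.0247, and the Miat library has the lowest total count of all, 25813697; the part of either in these values was not tested.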

How the results depend on the processing

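Neat1 between the populations kept its direction and passed in every alternative edgeR or DESeq2 fit run, with log2 fold changes from -6.07 to -5.85 and from -6.42 to -5.71 when 1 library was left out (adjusted p 0.000437 to 0.00627 by edgeR). The number of the 6 RNAs called there was 1 in the other settings and 1 to 2 when 1 library was left out; it was 0 in every setting of the stage comparisons.

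Counts over all genes moved more, and the cause was not tested. Between the populations 2534 genes passed, 3868 with DESeq2's test, 775 with the replicate block and 1900 to 3740 without 1 library. For maintenance against food training 25 became 977 with DESeq2's test, 0 with the replicate block or the GC slope term and 5 to 78 without 1 library. For abstinence against food training 0 became 140 with DESeq2's test. For abstinence against maintenance 34 became 793 with DESeq2's test, 15 with all libraries in the fit, 2 with the replicate block, 1 with the GC slope term and 6 to 73 without 1 library. For any stage 16 became 357, 9, 0 and 0 in the same order, 9 with the GC correction and 1 to 23 without 1 library.

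Uncalled values changed sign in some settings. For maintenance against food training the replicate block gave 0.0033 for Malat1 and 0.0051 for Neat1, and the GC slope term gave 0.33 for Neat1, 0.41 for Miat and 0.33 for Celf3. For abstinence against maintenance the GC correction gave 0.078 for Snhg11 and 0.17 for Kcnq1ot1, and the GC slope term gave 0.073 for Malat1, -0.063 for Neat1, -0.27 for Miat, 0.063 for Snhg11 and 0.016 for Kcnq1ot1. Without 1 library, maintenance against food training ranged from -0.16 to 0.077 for Malat1, -0.78 to 0.45 for Neat1, -0.76 to 0.047 for Miat, -0.25 to 0.072 for Snhg11 and -0.47 to 0.074 for Kcnq1ot1. Abstinence against food training ranged from -0.047 to 0.55 for Miat and -0.25 to 0.29 for Snhg14, and abstinence against maintenance from -0.0096 to 1.04 for Neat1, -0.26 to 0.095 for Snhg11 and -0.37 to 0.12 for Kcnq1ot1.

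Between stages the replicate numbers did not pair the libraries (r of same-numbered libraries from -0.35 to 0.11, best with their own number in 1 of 4, 1 of 3 and 0 of 3), and the block changed no call of the 6 RNAs in any comparison. The exact permutation test within pairs (Neat1 p = 0.125, the smallest it allows) and leaving out the maintenance libraries were chosen after seeing the data; the latter moved Malat1 for abstinence against food training to -0.51. With 3 or 4 pools a group, changes within the intervals given cannot be seen, and Neat1, at 161 to 789 counts in dopaminergic libraries, is the least precise.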
